A study of Mus musculus with 18 samples.

Results

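The cell cycle and DNA replication genes described here are 39 genes given by symbol, from the loading of the replicative helicase to the separation of the chromosomes. A gene counted as a member when its mouse Ensembl identifier in the expression table mapped to one of these symbols, and 38 of the 39 did so among 23474 genes. Cdt1 was not analysed here. RNA was sequenced from epididymal white fat and from liver of male C57BL/6J mice aged 17 weeks, which had eaten 1 of 3 diets for 12 weeks from the age of 5 weeks. One group ate a normal diet (ND), another a high-fat diet (HFD), and the last the high-fat feed with 0.25% by weight of an ethanol extract of green tea (GT). There were 3 libraries per diet in either tissue, 18 altogether. The GT mice ate the fat-rich feed throughout, so GT against HFD compares the extract and GT against ND compares both changes of diet. Whether every library stands for a separate mouse is not in the labels, so p-values measure the spread between these libraries, which may be partly technical.

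A cell that is about to copy its DNA loads a ring of MCM proteins onto each origin of replication with the help of Cdc6, and this step is called licensing. In S phase the ring unwinds the DNA, Pcna clamps the polymerase to it, and the enzymes Rrm1, Rrm2, Tk1 and Tyms make the deoxynucleotides. Cyclins switch on their kinases in turn, cyclin E before S phase, cyclin A during it and cyclin B with Cdk1 at the entry into mitosis, where Foxm1 drives transcription of many of the genes. The Aurora and Polo kinases, the spindle checkpoint and the ubiquitin-conjugating enzyme Ube2c then govern mitosis, while kinesins, centromere proteins and Top2a act on the chromosomes and the spindle. Mature fat cells and most hepatocytes do not divide. In fat of obese rodents, dividing macrophages and fat cell precursors are known sources of these transcripts, and in the testis spermatogonia and meiotic spermatocytes express many of them at high levels.

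Among the fat libraries, 3 held far more RNA of testis germ cells than the other 6. These 3 are called the libraries with testis RNA below. The summed level of 24 germ cell markers was 100139.9 FPKM (fragments per kilobase of transcript, scaled to the mapped fragments of a library) in fat ND 1, 3069.6 in fat ND 3 and 2139 in fat HFD 1, against 59.3 to 205 in the other 6. The spermatid gene Tnp1 stood at 28802 FPKM in ND 1, 707 in ND 3, 604 in HFD 1, 45.1 in ND 2 and 2.87 to 22.2 in HFD 2, HFD 3 and the GT libraries. Ccna1, the germ cell cyclin A, stood at 38.4, 8.16 and 8.45 FPKM in ND 1, ND 3 and HFD 1 and at most at 0.393 in the others. Fat ND 1 also had the lowest sum of 8 adipocyte markers, 7152 FPKM against 17434 to 36100.1, and its rank correlation with the other fat libraries was 0.282 to 0.602, against 0.745 to 0.99 among those. Transcripts of the epididymis, the duct beside this fat pad, were also present: the sum of 10 markers was 23449 FPKM in ND 1, 1291 in HFD 2, 82.6 in ND 3, 34.8 in HFD 1, 13.1 in ND 2 and 1.02 to 1.92 in HFD 3 and GT. In HFD 2 nearly all of it was Crisp1, at 1172 FPKM. Of the 24 germ cell markers 16 reached 1 FPKM in ND 2, against 8 to 11 in HFD 2, HFD 3 and GT. ND 2 was thus not free of germ cell transcripts. Liver libraries carried 16511 to 47466 FPKM of 8 hepatocyte markers, and the rank correlation between them was 0.906 to 0.983. Alb was listed at 0 in liver HFD 3 and at 21156 to 28177 FPKM in the other 8. Each result in fat is therefore given for all 9 libraries and again without ND 1, ND 3 and HFD 1, a fit in which the ND group is the single library ND 2 and is assumed to vary like the other groups.

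Promoters of 6 members are shown because the results turn on these genes and because their letters show the motifs that cell cycle promoters are known for. The upstream sequences are RefSeq windows of build GRCm38.p6, which held 31 of the 38 members in 33 windows of 250 bases before the start of a gene. Capitals mark 3 kinds of motif, searched on both strands and never overlapping in a member's window: an E2F site (TTTCCCGC or TTTGGCGC), a cell cycle homology region or CHR (TTTGAA or TTCGAA), and a CCAAT box (CCAAT). Each line gives the 150 bases that end just before the start, 5′ to 3′ on the strand of the gene.
Mcm6, a helicase subunit, chr1:128359706-128359855, - strand: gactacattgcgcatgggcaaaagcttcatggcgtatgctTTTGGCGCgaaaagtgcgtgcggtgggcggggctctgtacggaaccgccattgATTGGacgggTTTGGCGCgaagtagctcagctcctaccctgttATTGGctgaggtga
Mcm5, a helicase subunit, chr8:75109359-75109508, + strand: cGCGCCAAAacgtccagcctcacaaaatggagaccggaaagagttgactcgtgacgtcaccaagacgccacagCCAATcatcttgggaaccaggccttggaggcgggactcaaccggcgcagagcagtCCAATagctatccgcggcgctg
Mcm3, a helicase subunit, chr1:20820313-20820462, - strand: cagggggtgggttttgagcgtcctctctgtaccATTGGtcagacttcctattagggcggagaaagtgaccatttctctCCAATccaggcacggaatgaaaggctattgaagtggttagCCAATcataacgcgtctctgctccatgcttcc
Mki67, the Ki-67 antigen, chr7:135716380-135716529, - strand: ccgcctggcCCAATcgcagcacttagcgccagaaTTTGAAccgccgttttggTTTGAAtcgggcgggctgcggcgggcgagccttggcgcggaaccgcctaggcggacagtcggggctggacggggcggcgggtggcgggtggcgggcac
Top2a, topoisomerase II alpha, chr11:99024190-99024339, - strand: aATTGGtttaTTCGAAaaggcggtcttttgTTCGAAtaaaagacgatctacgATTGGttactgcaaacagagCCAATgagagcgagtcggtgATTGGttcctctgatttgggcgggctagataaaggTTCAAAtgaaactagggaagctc
Ccnb2, cyclin B2, chr9:70421555-70421704, - strand: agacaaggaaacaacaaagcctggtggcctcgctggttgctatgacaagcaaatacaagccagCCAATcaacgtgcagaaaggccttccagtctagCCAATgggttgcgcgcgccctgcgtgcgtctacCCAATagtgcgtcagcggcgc
The Mcm6 stretch holds 2 E2F sites and 2 CCAAT boxes, and the Mcm5 stretch 1 and 2. Mcm3 shows 3 CCAAT boxes. Mki67 shows 2 CHR elements and 1 CCAAT box, and Top2a 3 and 4. Ccnb2 shows 3 CCAAT boxes in a row with no other motif in this stretch. Over the full windows an E2F site was found in 33.3% of the 12 windows of licensing and S-phase members, in 0 of the 21 windows of the other members and in 1.3% of 32851 windows of all genes. A CHR was found in 16.7%, 42.9% and 17.1% of these, and a CCAAT box in 75.0%, 85.7% and 33.8%. These are matches of letters, and binding was not measured.

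All 38 members passed the filter in fat, at least 1 FPKM in 3 or more of the 9 libraries, and their levels differed widely. In HFD fat the mean level ran from 1.54 FPKM for Cenpf to 90.7 for Pcna. In the 9 fat libraries the median member stood between 1.54 FPKM in ND 2 and 9.54 in HFD 1. The heat map of members by library shows 2 patterns side by side in fat: a block of higher levels in the HFD libraries, and a library of its own, ND 1, in which the mitotic genes are among the highest of all.

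**Figure D1:**
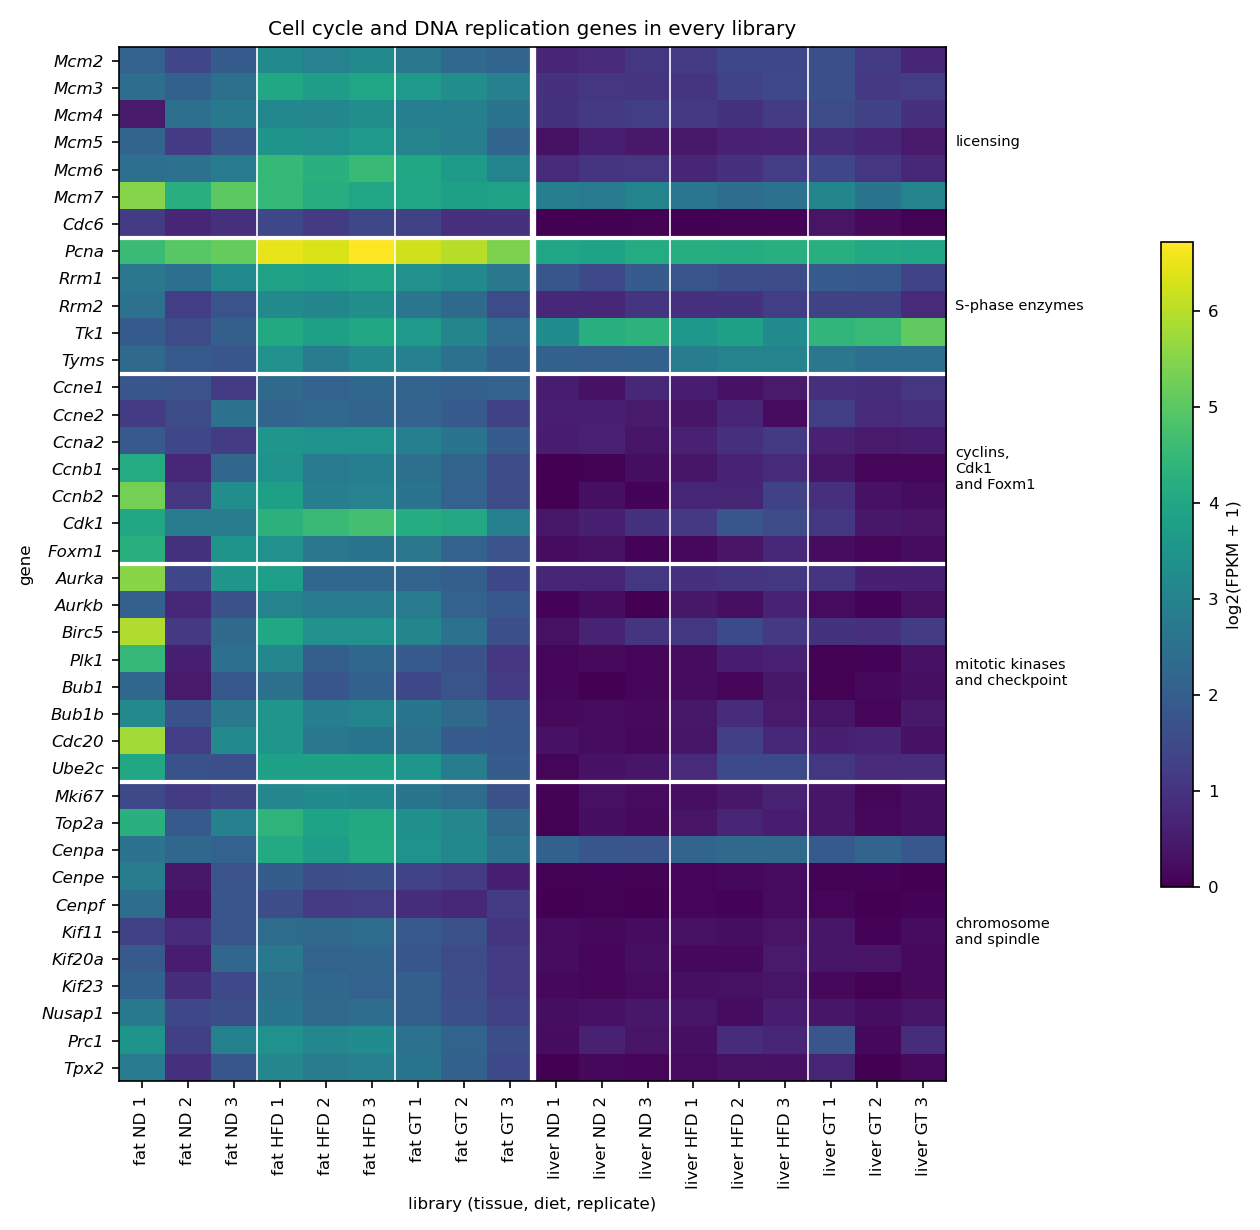
Level of the 38 members in every library as log2(FPKM + 1), with genes in rows grouped by role and libraries in columns by tissue, diet and replicate. Fat HFD libraries are brighter than fat GT and fat ND 2 in most rows, fat ND 1 stands out for Birc5, Cdc20, Aurka and Ccnb2, and most members are near 0 in liver.

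With all 9 libraries 9 of the 38 members were higher in HFD than in ND and 0 lower, at an adjusted p (limma, Benjamini-Hochberg over 13762 genes) under 0.05, where 5.28% of all genes tested were called higher and 0.371% lower. They were 4 of the 7 licensing genes, all subunits of the MCM helicase, 2 of the 5 S-phase enzymes, Pcna and Tk1, and Ccna2, Cenpa and Mki67, with log2 changes of 1.29 to 2.11 on the log2(FPKM + 1) scale, which understates the change of low genes. The median change was 0.93 over the members and 0.13 over all genes tested. Equal FPKM totals moved the median of all genes by 0.28, and the members with a higher mean in HFD were 32 of 38 as deposited, 35 at equal totals and 33 under quantile scaling. Every HFD library lay above every ND library for 20 members, against 21.9% of all genes. The count rested on few libraries. Leaving out HFD 3 gave 0 called members (0.423% of all genes higher), leaving out HFD 1 gave 2 (2.24%), leaving out HFD 2 gave 2 (1.85%) and leaving out ND 1 gave 24 (17.8%).

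Among the licensing genes Mcm6 stood at 21.7, 18.2 and 22.2 FPKM in the HFD libraries and at 4.48, 4.83 and 5.86 in ND. The HFD libraries lay far above the ND range, a log2 change of 1.84 ± 0.29 (SE, adjusted p = 0.0105). Mcm3 stood at 14.95, 12.5 and 14.7 FPKM in HFD and at 4.40, 3.26 and 4.56 in ND, a change of 1.58 ± 0.25 (adjusted p = 0.0107). Mcm5 and Mcm2, of the same ring, changed by 1.78 ± 0.33 and 1.29 ± 0.26 (adjusted p = 0.0196 and 0.0284). Their HFD libraries, 9.59 to 11.3 FPKM for Mcm5 and 6.83 to 8.21 for Mcm2, stood above ND libraries of 1.28 to 3.57 and 1.70 to 3.33. Mcm4 did not pass (1.31 ± 0.54, adjusted p = 0.227). Its ND libraries stood at 0.388, 4.50 and 5.52 FPKM, so the library with most testis RNA was the lowest here. Mcm7 went the other way, with 21.1, 17.1 and 14.7 FPKM in HFD and 44.4, 18.02 and 31.4 in ND (−0.72 ± 0.33, adjusted p = 0.258). Mcm7 shares 321 bases of exon, 7.3% of its own, with Ap4m1 on the opposite strand in GENCODE M21. The library kit named in the labels is not described as keeping strand. Other members share exon bases in this way too, Kif20a 29.3% with Cdc23, Ube2c 22.8% with Tnnc2 and Ccne2 17.4% with Ints8. Ccna2, a called member, shares 12.5% with Exosc9, and Prc1 11.1% with Rccd1. The part of these genes in the levels of the members was not tested. Cdc6, the loader of the ring, stayed low, at 1.25 to 1.77 FPKM in HFD and 0.664 to 1.23 in ND (adjusted p = 0.318).

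Of the S-phase enzymes, Pcna was the most abundant member in every HFD fat library, at 88.5, 79.2 and 104.3 FPKM, against 22.8, 30.7 and 34.1 in ND. The change was 1.61 ± 0.29 (adjusted p = 0.0185), and the groups did not overlap. Tk1, the thymidine kinase of S phase, stood at 15.99, 13.0 and 14.9 FPKM in HFD and at 2.89, 1.91 and 3.13 in ND, and its change of 2.11 ± 0.33 (adjusted p = 0.0113) was the largest of the called members. Both subunits of ribonucleotide reductase and thymidylate synthase lay above ND in all HFD libraries without passing the test. Rrm1 changed by 1.10 ± 0.28 (adjusted p = 0.0627), Tyms by 1.15 ± 0.30 (0.0671) and Rrm2 by 1.39 ± 0.40 (0.0961).

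Ccna2, cyclin A2 of dividing somatic cells, was the called member among the cyclins. It stood at 10.6, 9.87 and 9.90 FPKM in HFD and at 2.68, 1.67 and 1.29 in ND, a change of 1.98 ± 0.31 (adjusted p = 0.0105). The HFD libraries were close together and the ND libraries all lay at most at 2.68 FPKM. The cyclins of mitosis gave another picture: Ccnb2 stood at 38.9, 1.08 and 8.75 FPKM in ND and at 13.1, 6.30 and 6.94 in HFD, and Ccnb1 at 16.7, 0.688 and 3.69 in ND and 9.78, 5.64 and 6.51 in HFD. In both genes ND 1 was the highest and ND 2 the lowest of the 9 fat libraries, and the changes were 0.01 ± 0.94 and 0.65 ± 0.76. Foxm1 showed the same order in ND, 18.2, 0.970 and 10.2 FPKM, with 4.97 to 9.49 in HFD. Cdk1 stood at 18.8, 22.2 and 25.0 FPKM in HFD, above 15.2, 6.15 and 6.03 in ND, and did not pass (1.29 ± 0.43, adjusted p = 0.149). Ccne1 and Ccne2, the cyclins E, changed by 0.66 ± 0.25 and 0.47 ± 0.38 (adjusted p = 0.185 and 0.448).

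None of the 8 mitotic kinases and checkpoint genes passed with all 9 libraries, and their ND libraries were spread most. Birc5, the survivin subunit of the chromosomal passenger complex, stood at 59.4 FPKM in ND 1, 1.18 in ND 2 and 4.04 in ND 3, against 15.4, 9.49 and 9.57 in HFD. Cdc20, the activator of the anaphase-promoting complex, stood at 54.6, 1.31 and 8.196 in ND, and Aurka, the Aurora kinase of the spindle poles, at 44.7, 1.70 and 10.3. ND 1 was the highest ND library in 8 of these 8 genes and in 29 of the 38 members, where 37.8% of all genes had it highest. The ratio of ND 1 to ND 2 had a median of 17.74 over the mitotic kinases and checkpoint genes, 5.84 over chromosome and spindle, 2.47 over the cyclin set, 1.86 over licensing and 1.46 over the S-phase enzymes. The ratio of ND 3 to ND 2 had medians of 4.74, 2.81, 2.41, 1.4 and 1.64 for the same groups in that order. HFD 1 was the highest HFD library in 27 of 38 members, with 45.3% of all genes, and its ratio to HFD 2 was largest in the mitotic kinases, with a median of 1.76 against 1.12 to 1.28 in the other groups. The part of testis RNA in these levels was not tested.

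Of the chromosome and spindle genes, Mki67, the Ki-67 antigen used to mark dividing cells, stood at 7.64, 8.41 and 7.78 FPKM in HFD and at 1.81, 1.25 and 1.60 in ND. This was a change of 1.81 ± 0.28 (adjusted p = 0.0109), with 3 close libraries on each side. Cenpa, the centromeric histone H3, stood at 16.3, 12.6 and 16.2 FPKM in HFD against 4.903, 3.78 and 3.36 (1.68 ± 0.28, adjusted p = 0.0139). Top2a, which untangles replicated DNA, stood at 19.9, 13.8 and 15.96 FPKM in HFD but at 18.3, 2.72 and 6.78 in ND, and did not pass (1.08 ± 0.57, adjusted p = 0.294). The groups of Top2a overlapped through ND 1 alone.

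**Figure D2:**
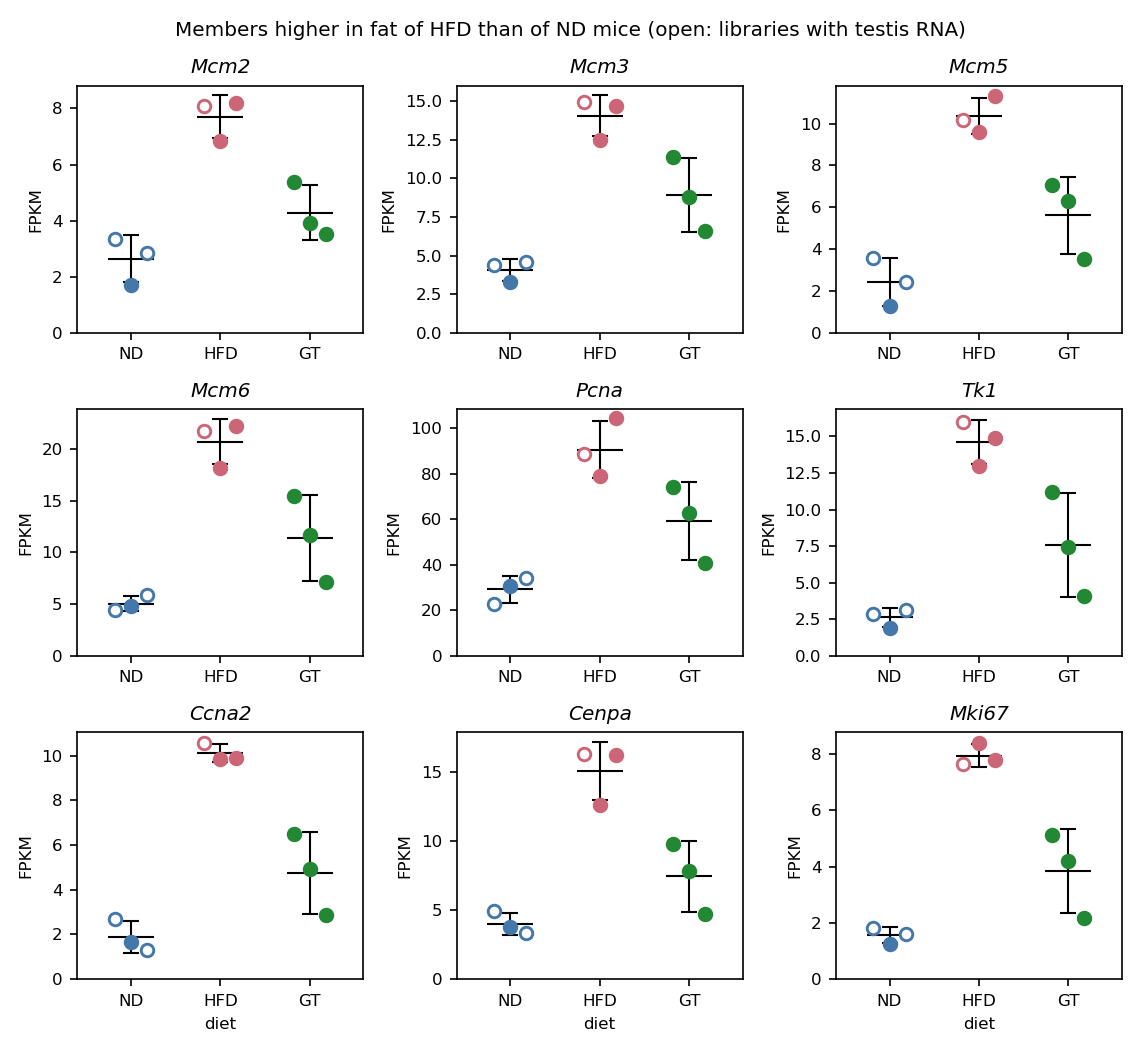
FPKM of the 9 members called higher in HFD than in ND with all 9 fat libraries, by diet, with a point per library and the mean ± SD (n = 3) as bars. Open points are the 3 libraries with most testis RNA. In each panel the HFD points lie above all ND points, and the GT points lie below the HFD points.

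Without ND 1, ND 3 and HFD 1 the list of called members grew to 31 of 38, all higher in HFD, where 21% of all genes tested were called higher and 9.32% lower. The median change was 1.64 over the members and 0.14 over all 12309 genes tested. The called members were 5 of 7 in licensing, 4 of 5 among the S-phase enzymes, 5 of 7 in the cyclin set, 7 of 8 mitotic kinases and checkpoint genes and 10 of 11 chromosome and spindle genes. Birc5 stood at 9.49 and 9.57 FPKM in HFD 2 and HFD 3 and at 1.18 in ND 2 (2.27 ± 0.51, adjusted p = 0.0229). Top2a changed by 2.09 ± 0.40 (adjusted p = 0.0154), Ccnb1 by 2.06 ± 0.37 (0.0136) and Cdc20 by 1.44 ± 0.28 (0.0164). The 7 members that did not pass were Mcm7, Cdc6, Tyms, Ccne1, Ccne2, Aurka and Nusap1. Of these Mcm7 alone was lower in HFD, at 17.1 and 14.7 FPKM against 18.02 in ND 2 (−0.18 ± 0.15, adjusted p = 0.406). This fit has a single ND library, so any peculiarity of ND 2 is part of the change. When HFD 2, the library with epididymis transcripts, was left out too, 4 of 36 tested members were called higher, where 7.37% of all genes were. That fit, chosen after seeing the data, has 1 library each for HFD and ND and takes its spread from the GT libraries. In it Mcm6 changed by 1.99, Mki67 by 1.96 and Tk1 by 2.45, all 3 without passing.

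**Figure D3:**
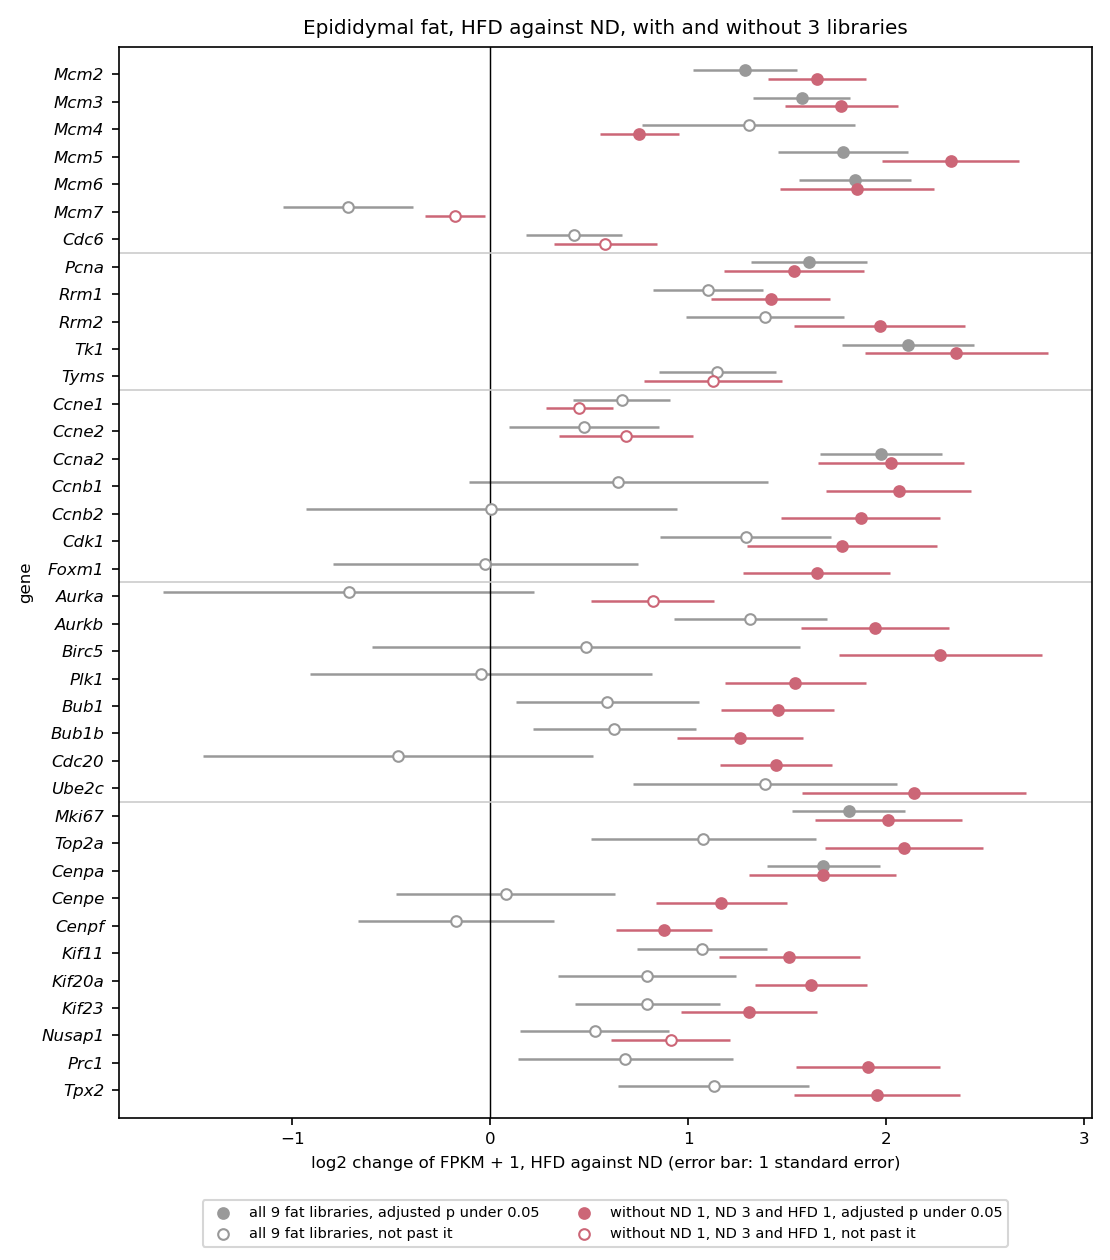
Log2 change of FPKM + 1 in fat, HFD against ND, for each of the 38 members with its standard error, from all 9 libraries (grey) and without ND 1, ND 3 and HFD 1 (red). Filled points passed an adjusted p of 0.05: 9 in grey and 31 in red, and the red bars of the mitotic genes are shorter and further to the right.

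Macrophage transcripts moved with the members in the 6 fat libraries with low germ cell sums, but not over all 9. The members summed to 470.8 FPKM in ND 1, the highest sum, where the macrophage sum was the lowest. They summed to 214.3 FPKM in ND 3 and 457.6 in HFD 1. The sum of 15 macrophage markers was 173, 354 and 330.1 FPKM in ND, 3522, 2711 and 3771 in HFD and 2255, 1806 and 870.3 in GT. Of the 13 that entered the fit 10 were called higher in HFD than in ND. With all 9 libraries 5.28% of all genes were called higher and 0.371% lower. Adgre1, the F4/80 antigen, stood at 0.651, 16.02 and 14.3 FPKM in ND, 213, 195 and 259 in HFD and 136, 125 and 57.4 in GT, while Clec4f of Kupffer cells was listed at 0 in all fat libraries. In the other 6 libraries, those with the low germ cell sums, the sum over the members ran 115.0 (ND 2), 154.8 (GT 3), 240.0 (GT 2), 303.0 (GT 1), 365.2 (HFD 2) and 418.3 (HFD 3) FPKM, which is the order of the macrophage sums. The sum of 10 markers of T, B and NK cells stayed at 4.21 to 12.9 FPKM and showed no such order. The sum of 8 adipocyte markers ran in the opposite order in these 6 libraries, 36100.1 (ND 2), 29192 (GT 3), 26797 (GT 2), 24793 (GT 1), 18950 (HFD 2) and 17434 (HFD 3) FPKM. With all 9 libraries 1 of the 8 was called lower in HFD than in ND, and without the 3 libraries 5 were called lower and 1 higher. The sum of 7 markers of preadipocytes and fibroblasts was 1318 FPKM in ND 2, 1186 to 1459 in GT and 1821 and 1955 in HFD 2 and HFD 3, and 1 of the 7 was called higher in HFD with all 9 libraries and 3 without the 3. Fewer cells of a type and less RNA per cell cannot be told apart in bulk tissue, and the part of any of these cell types in the change of the members was not tested.

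**Figure D4:**
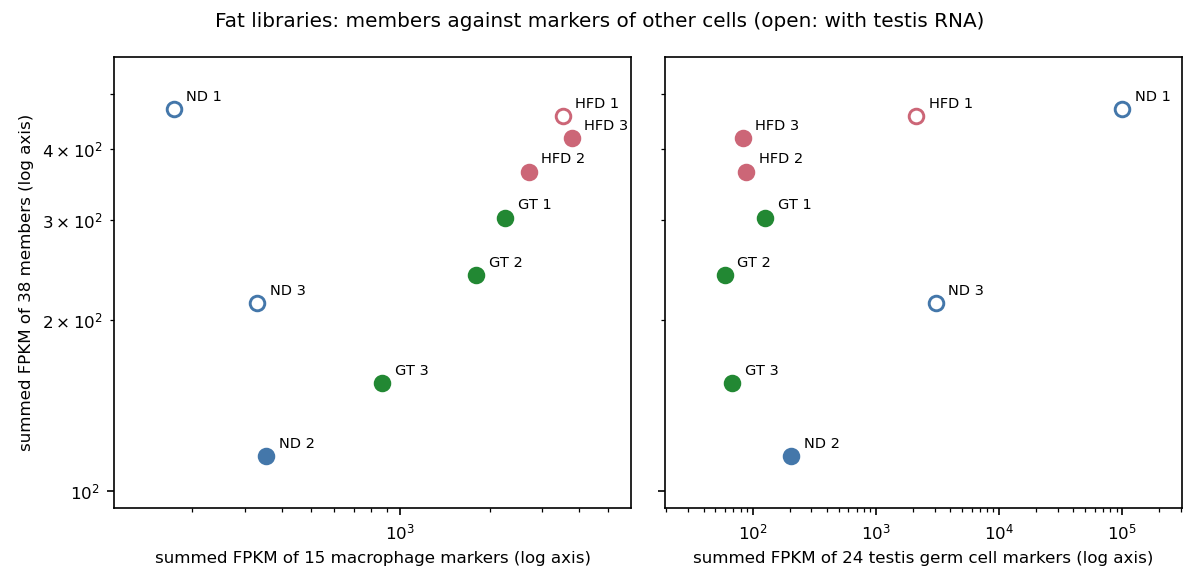
Summed FPKM of the 38 members in each fat library against that of 15 macrophage markers (left) and of 24 testis germ cell markers (right). All axes are log axes, and open points are the 3 libraries with most testis RNA. The 6 filled points rise together on the left from ND 2 to HFD 3, while ND 1 has few macrophage transcripts and the most testis transcripts.

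Green tea extract was added to the high-fat diet in the GT group, and the fat of this group was compared with HFD fat. All 38 members had a lower mean in GT, but 0 passed the test. At an adjusted p under 0.05 limma called 0 of all 13762 genes in this contrast, so the background is 0%, while 467 genes and 11 members had an unadjusted p under 0.05. The median change was −0.83 over the members and −0.14 over all genes. Every GT library lay below every HFD library for 33 of the 38 members, against 23.5% of all genes tested. Quantile scaling moved the median of all genes by 0.16, and 36 of the 38 members kept a lower mean in GT under it.

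Cenpa had the smallest p, with 9.77, 7.84 and 4.70 FPKM in GT against 16.3, 12.6 and 16.2 in HFD (−0.97 ± 0.28, adjusted p = 1). Mki67 stood at 5.11, 4.20 and 2.19 FPKM in GT (−0.94 ± 0.28), Ccna2 at 6.50, 4.95 and 2.85 (−0.999 ± 0.31) and Mcm6 at 15.4, 11.7 and 7.12 (−0.86 ± 0.29), each with an adjusted p of 1. Of other well known members, Top2a stood at 9.28, 7.62 and 4.05 FPKM (−1.18 ± 0.57), Pcna at 74.1, 63.0 and 40.8 (−0.64 ± 0.29) and Mcm2 at 5.39, 3.92 and 3.52 (−0.73 ± 0.26). In each of these 7 genes the GT libraries lay between ND 2 and the HFD libraries, and GT 3 was the lowest of the 3. GT 3 was the lowest GT library in 34 of the 38 members, with 47.8% of all genes, and it also had the lowest macrophage sum of the group. The 5 members whose GT and HFD libraries overlapped were Cdc6, Tyms, Ccne1, Aurkb and Foxm1. For Tyms, GT 1 at 6.72 FPKM lay above HFD 2 at 6.25.

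Without the 3 libraries with testis RNA 0 members were called in GT against HFD, where 0.577% of all genes were called lower and 0.804% higher, and 25 members had an unadjusted p under 0.05. The median was −0.70 over the members and −0.09 over all genes. Prc1, a bundler of the central spindle, had the smallest p there (−1.07 ± 0.27, adjusted p = 0.0765). With only the HFD and GT libraries in the fit 6 members were called lower, Top2a, Prc1, Rrm1, Mcm2, Cenpa and Ccna2, with adjusted p of 0.0363 to 0.0487, where 4.07% of all genes were called lower.

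GT against ND compares mice that ate both the fat-rich feed and the extract with mice on the normal diet. With all 9 libraries 0 members were called, where 0.61% of all genes were called higher and 0.0291% lower. An unadjusted p under 0.05 was found for 9 of the 38 members and for 2807 of all 13762 genes. The median change was 0.17 over the members and 0.08 over all genes, which equal totals moved by 0.24 and quantile scaling by 0.18. The replicate number as a block left 0 members called and 3 of all genes in place of 88. Mcm3 had the smallest p, with 11.4, 8.80 and 6.62 FPKM in GT against 4.40, 3.26 and 4.56 in ND (0.95 ± 0.25, adjusted p = 0.139). Tk1 changed by 1.16 ± 0.33, Mcm6 by 0.98 ± 0.29 and Pcna by 0.97 ± 0.29 (adjusted p = 0.177, 0.179 and 0.191). Every GT library lay above every ND library in 8 members, with 15.7% of all genes, and Mcm7 was the member whose GT libraries, 13.2 to 14.5 FPKM, all lay below ND, as in 13.5% of all genes.

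The GT against ND count depended on the ND libraries. Without the 3 libraries with testis RNA Mcm5 and Mcm3 were called higher (1.4995 ± 0.32 and 1.19 ± 0.27, adjusted p = 0.0437 and 0.0459), where 7.44% of all genes were called higher and 2.62% lower. With HFD 2 left out too, Mcm5 and Mcm3 kept these changes but were not called. That fit called almost no gene and took its spread from the GT libraries alone. Without ND 1 alone, Mcm5, Mcm3 and Ccna2 were called higher, with 7.5% of all genes. Without ND 2, 4 members were called lower, Mcm7, Foxm1, Aurka and Cenpf, with log2 changes of −1.37, −1.71, −2.62 and −1.15, where 14% of all genes were called lower. In that fit the ND group consists of ND 1 and ND 3, both with testis RNA. In 30 of the 38 members HFD 2 and HFD 3 both lay above each GT library and each GT library lay above ND 2, an order that 14.9% of all fat genes showed.

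Other genes of the cell cycle were read from 3 lists. The background in fat HFD against ND is again the 5.28% of all genes called higher. Of 20 genes of G1 control 0 were called there, with a median of 0.43. Of 35 tested genes of the replication machinery Dnmt1, the maintenance DNA methyltransferase, was called (13.7 ± 1.35 against 5.53 ± 1.11 FPKM, 1.18 ± 0.26, adjusted p = 0.0358), with a median of 0.23 for the list, so its share of called genes was below that of all genes. Of 40 tested genes of mitosis 4 were called higher: Melk, a kinase of dividing cells, Mad2l1 of the spindle checkpoint, Dlgap5 of the spindle and Smc2 of condensin, by 1.29, 1.41, 1.76 and 1.10. The median of that list was 0.53. Without the 3 libraries with testis RNA 7 G1 genes were called higher and 0 lower, 13 and 1 of the replication machinery and 25 and 1 of mitosis, with medians of 0.49, 0.80 and 1.17, beside 21% of all genes called higher and 9.32% lower. Ccnd1, cyclin D1, stood at 23.6 FPKM in that HFD group against 7.21 in ND 2 (1.58 ± 0.18, adjusted p = 0.00996), and Incenp, the scaffold of the passenger complex, at 8.70 against 1.43 (1.998 ± 0.33, adjusted p = 0.0118). In GT against HFD the kinase Wee1, which holds Cdk1 inactive, was the called gene of the 3 lists without those libraries, at 2.23 ± 0.13 FPKM in GT and 6.13 ± 1.03 in HFD (−1.14 ± 0.15, adjusted p = 0.0457). E2f1, an activating E2F, stood at 13.3 ± 1.46 FPKM in GT, 13.2 ± 1.52 in HFD and 5.19 ± 2.44 in ND, and neither of its contrasts with ND passed with all 9 libraries (adjusted p = 0.0549 for HFD and 0.117 for GT).

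In liver most members were scarce. The median member stood at 0.213 to 0.856 FPKM over the 9 liver libraries, and 15 of the 38 passed the filter of 1 FPKM in 3 libraries. These were Mcm2, Mcm3, Mcm4, Mcm6, Mcm7, all 5 S-phase enzymes, Cdk1, Aurka, Birc5, Ube2c and Cenpa. Pcna, at 14.0 to 18.02 FPKM, Tk1, at 8.3999 to 32.8, and Mcm7, at 4.29 to 7.48, were the most abundant. Cdc6 stood at 0 to 0.0435 FPKM in ND and HFD liver and at 0.281, 0.122 and 0.0245 in GT. For 36 members every HFD fat library lay above every HFD liver library, as did 69.3% of the genes tested in fat.

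In HFD against ND liver 3 members of the 15 were called higher and 0 lower, where 11.9% of all 10670 genes were called higher and 6.67% lower. The median change was 0.21 over the 15 members and −0.02 over all genes. Tyms, the enzyme that makes thymidylate, stood at 6.18, 6.96 and 7.08 FPKM in HFD and at 3.27, 3.20 and 3.25 in ND. The 2 groups were tight and far apart, a change of 0.87 ± 0.13 (adjusted p = 0.00329). Cdk1, the kinase of mitotic entry, stood at 1.15, 2.50 and 1.87 FPKM in HFD and at 0.341, 0.497 and 0.978 in ND (0.82 ± 0.24, adjusted p = 0.0389). Its call was lost with no filter (adjusted p = 0.0724), with the replicate block (0.0733), at equal totals (0.0709), with 0.1 in place of 1 added (0.0584), and without ND 1, ND 2, ND 3, HFD 2 or HFD 3 (0.0586 to 0.17). Ube2c stood at 0.758, 1.86 and 1.795 FPKM in HFD and at 0.0940, 0.251 and 0.333 in ND (0.98 ± 0.19, adjusted p = 0.00915). Ube2c shares 592 bases of exon, 22.8% of its own, with the muscle gene Tnnc2 on the opposite strand. Tnnc2 was listed at 20.1 and 4.904 FPKM in HFD 2 and HFD 3 and at 0 in HFD 1, and at 0, 0.955 and 0 in ND, and its part in Ube2c was not tested. Cdk1 and Ube2c reached 1 FPKM in no ND library and passed the filter through the HFD and GT libraries, so the count of 3 of 15 is a description. Leaving out liver HFD 2 or HFD 3 left 1 of the 3 calls each, that of Tyms, where 3.43% and 7.9% of all genes were called higher. Ube2c no longer met the filter in either fit, nor without GT 1, so it was not tested there.

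Every HFD library lay above every ND library for 7 of the 15 members and below for 1, against 23.6% and 21.3% of all genes. Birc5, Cenpa and Mcm2 lay above ND in all HFD liver libraries without passing (0.59 ± 0.19, 0.39 ± 0.15 and 0.47 ± 0.22, adjusted p = 0.0568, 0.0948 and 0.144). Mcm7 was the tested member that lay below ND in all HFD liver libraries, at 5.20, 4.29 and 4.79 FPKM against 6.31, 5.79 and 7.21 (−0.37 ± 0.16, adjusted p = 0.138). In fat its HFD and ND libraries overlapped. Pcna changed by 0.20 ± 0.14, and at equal FPKM totals by −0.00403. That scaling moved the median of all liver genes by −0.18, and the share of higher genes among those called fell from 64.0% to 41.9%. Without the filter 4 of the 38 members were called higher, Tyms, Ube2c, Ccnb1 and Ccnb2, where 6.21% of all genes were called higher. Ccnb1 stood at 0.322, 0.594 and 0.758 FPKM in HFD and at 0, 0.0291 and 0.180 in ND. Ccnb2 stood at 0.624, 0.634 and 1.47 against 0, 0.206 and 0.0408. These levels are low, and a pseudogene of Ccnb2 listed apart stood at 0.339 to 1.66 FPKM in liver, so reads of the 2 may have been split.

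In GT against HFD liver 1 member was called, Tk1, which was higher in GT, where 1.14% of all genes were called higher and 4.22% lower. Higher genes were 21.3% of those called, 32.7% at equal totals and 35.5% under quantile scaling. Members had a median change of −0.10 and all genes one of −0.04. Tk1 stood at 20.6, 22.5 and 32.8 FPKM in GT, at 10.9, 13.3 and 8.3999 in HFD and at 8.56, 17.6 and 19.2 in ND. The GT libraries lay above all others, a change of 1.14 ± 0.29 against HFD (adjusted p = 0.0468). Tk1 shares 83 bases of exon, 1.6% of its own, with Afmid on the opposite strand, a gene of tryptophan breakdown listed at 44.3 to 93.6 FPKM in liver. Afmid stood at 87.6 to 93.6 in GT and at 44.3 to 60.7 in HFD, and its part in Tk1 was not tested. The call of Tk1 was lost without any of the 3 GT libraries, any of the 3 HFD libraries, ND 2 or ND 3. Cdk1 and Tyms had lower levels in GT than in every HFD library, with 1.11, 0.341 and 0.269 FPKM for Cdk1 and 5.35, 4.44 and 4.52 for Tyms (−0.86 ± 0.24 and −0.43 ± 0.13, adjusted p = 0.0628 and 0.0837). Without liver GT 1, Cdk1 was called lower (−1.10 ± 0.23, adjusted p = 0.0388) and Tk1 was not called.

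**Figure D5:**
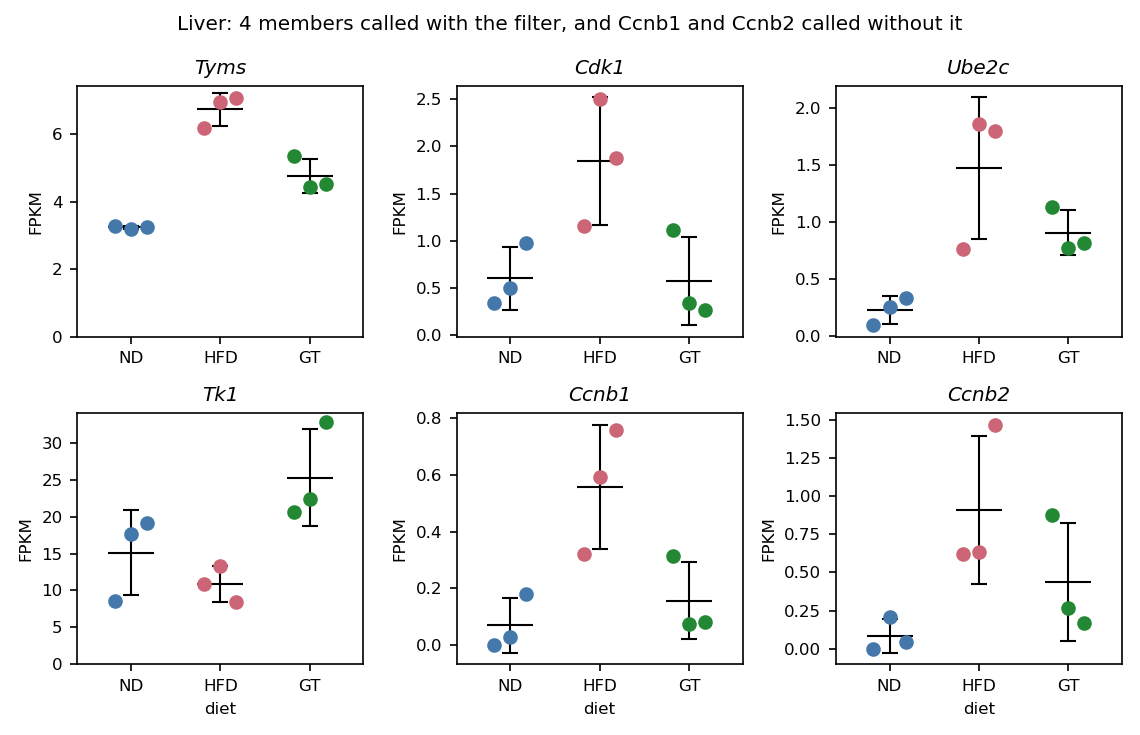
FPKM in liver of the members called with the filter (Tyms, Cdk1 and Ube2c higher in HFD than in ND, Tk1 higher in GT than in HFD) and of Ccnb1 and Ccnb2, called higher in HFD than in ND without the filter. Points are libraries and bars are mean ± SD (n = 3), and Tk1 has its highest points in GT while the others have them in HFD.

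GT against ND liver called 0 members at an adjusted p under 0.05 with limma, where 1.27% of all genes were called higher and 1.33% lower. Over the 15 members the median change was 0.15, and over all genes −0.05. The 3 members of smallest p were Tyms (0.44 ± 0.13, adjusted p = 0.114), Ube2c (0.64 ± 0.19, adjusted p = 0.12) and Tk1 (0.75 ± 0.29, adjusted p = 0.216). In each of the 3 genes every GT library lay above every ND library.

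The other genes of the cycle in liver were read from the same 3 lists. In HFD against ND E2f1 rose by 0.79 ± 0.16 (adjusted p = 0.00898), from 0.485 ± 0.15 to 1.57 ± 0.29 FPKM, while Rbl2, a pocket protein that represses E2F targets, and E2f8, a repressive E2F, fell by 0.79 and 1.34. Beside the 11.9% of all genes called higher, 4 of 25 tested genes of the replication machinery were, Dut, Rfc4, Rpa3 and Lig1, of which Dut, which removes dUTP, changed most (0.96 ± 0.15, adjusted p = 0.00312). Of 13 tested genes of mitosis 4 were called higher, Stmn1, Spc24, Pttg1 and Mad2l1, of which Stmn1, a tubulin-binding protein, changed by 1.18 ± 0.20 (adjusted p = 0.00531). In GT against HFD 4.22% of all genes were called lower and 1.14% higher, and Stmn1 and Dut were called lower, by −1.04 and −0.62. In GT against ND 1.27% of all genes were called higher and 1.33% lower, and E2f1 was called higher, by 0.71. The sum of macrophage markers in liver was 102 to 133 FPKM in ND, 119 to 168 in HFD and 64.4 to 105 in GT. The sum of erythroid markers was 124 to 156, 196 to 333 and 113 to 189. Of 6 tested fibroblast markers 3 were called higher in HFD than in ND and 4 lower in GT than in HFD, with medians of 0.54 and −1.29, and the sum of all 7 such markers was 89.9 to 112 FPKM in ND, 109 to 165 in HFD and 60.5 to 95.1 in GT. Of 12 tested macrophage markers 0 were called in HFD against ND by limma and 2 lower in GT than in HFD. The sum of skeletal muscle markers was 82.2 in HFD 2, 16.4 in HFD 3, 35.4 in GT 3 and 0.334 to 3.20 in the other 6. The part of these cells and tissues in these levels was not tested.

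The change with high-fat diet differed between the tissues for 6 of the 15 members that passed the filter in both, all with the higher change in fat, where 5.98% of 10042 genes had the higher change in fat by this test and 2.55% the lower. The difference of the log2 changes, fat minus liver, was 2.50 ± 0.47 for Tk1 (adjusted p = 0.00501), 1.85 ± 0.35 for Mcm6 (0.00501), 1.41 ± 0.31 for Pcna (0.0132), 1.30 ± 0.30 for Mcm3 (0.016), 1.29 ± 0.32 for Cenpa (0.0212) and 1.21 ± 0.33 for Rrm1 (0.0354). The change of Tk1 was 2.11 in fat and −0.39 in liver, where it did not pass. Mcm3 and Mcm6 were low in liver, and the log2(FPKM + 1) scale understates the change of low genes. With 0.1 in place of 1 added, 4 of the 15 members differed. In that fit 4.9% of all genes had the higher change in fat and 2.43% the lower. At equal totals 8 members differed, with 6.83% and 0.856% of all genes. Tyms, called higher in liver, gave a difference of 0.28 ± 0.31 (adjusted p = 0.539), and Mcm7 one of −0.35 ± 0.37 (0.516). Without the 3 libraries with testis RNA 9 members had the higher change in fat, with 15% of all genes higher and 9.55% lower, and the added ones were Mcm2, Rrm2 and Birc5. In GT against HFD 0 members differed between the tissues with all 18 libraries, where 0.00996% of all genes had a larger change in fat. Without the 3 libraries Tk1 differed (−2.02 ± 0.48, adjusted p = 0.0282), where 2.76% of all genes had the lower change in fat and 4.16% the higher.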

How the data were processed

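The authors deposited 1 table of FPKM values per gene for 18 libraries, with 0 columns of no sample, for which the submitters' processing notes name Cufflinks 2.1.1, STAR 2.4.0 and CASAVA 1.8.2. Neither the build nor the read numbers are given in the sources used here, and depth is unknown. Of 23474 identifiers 22671 matched a GENCODE M21 symbol. Values were tested as log2(FPKM + 1) in limma 3.58.1 (R 4.3.3), with trend and robust variances and 1 mean per diet, in genes with at least 3 of 9 libraries at 1 FPKM, and adjusted by Benjamini-Hochberg over all genes of a contrast at 0.05. Tissue differences came from a fit of 18 libraries. The members, lists and tests were chosen with earlier results of these data known. Full statistics were given for up to 10 members of smallest p per contrast and for Mki67, Top2a, Pcna and Mcm2, and up to 3 genes of smallest p were named per other list and contrast. The 4 called mitosis genes of each tissue and Lig1, the 4th of its list, and members outside these limits were named after their values were seen. Replicate numbers were taken from the labels. By the correlation of deviations from the group means, all 6 libraries of fat GT against ND correlated best with their own number (0.258, 0.124 and 0.189). In no other contrast did all 6 do so. Such weak correlations do not establish that the numbers mark pairs, and the main fits did not use the numbers. Tested on simulated data with log2 changes of 1 and 2, the HFD against ND fit found 3% and 29% of them in fat (13762 genes, 4 false calls) and 75% and 98% in liver (10670 genes, 11 false calls). The simulated noise was normal, independent between genes and equally wide in all diets of a gene. In fat the spread of the mitotic genes lay mostly in ND, so these figures do not carry over to them. Repeats used an added 0.1, no filter, equal FPKM totals, quantile scaling, the replicate block, only the 2 diets compared, the fit without 3 libraries, the same without fat HFD 2, and each library left out. Plots were made in Python 3.11.15 with matplotlib 3.10.9.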

Additional observations from a re-analysis of the deposited data

Results flagged for a closer look

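The test of the difference between the tissues set 6 members apart in HFD against ND, by the log2 change in fat minus that in liver: Tk1 (2.50), Mcm6 (1.85), Pcna (1.41), Mcm3 (1.30), Cenpa (1.29) and Rrm1 (1.21). Rrm1 is on this list although its change in fat alone, 1.10, did not pass the test there, and its change in liver was −0.11.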

How the results depend on the processing

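Without the 3 libraries with testis RNA the called members rose from 9 to 31 in fat HFD against ND and from 0 to 2 in fat GT against ND, and the tissue difference of GT against HFD from 0 to 1. With fat HFD 2 left out as well, an alternative chosen after seeing the data, fat HFD against ND had 4 and Top2a in fat GT against ND was 1.04. With only the 2 diets compared in the fit, fat HFD against ND had 5 (2.28% of all genes higher), fat GT against HFD 6 (4.07% lower) and liver GT against HFD 0. Liver GT against HFD went from 1 to 0 also with no filter, under quantile scaling and with the replicate block. Over the fits with a library left out, called members in fat HFD against ND ran from 0 (without HFD 3, 0.423% of all genes higher) to 24 (without ND 1, 17.8%). In fat GT against ND they ran from 0 to 4 (without ND 2, 14% of all genes lower). In liver HFD against ND they ran from 1 (without HFD 2, 3.43% of all genes higher) to 4 (without GT 3, 17.5%). In liver GT against HFD they ran from 0 to 1. The 1 without GT 1 (2.06% of all genes lower) is Cdk1, lower, in place of Tk1. For the tissue difference of HFD against ND they ran from 3 (without fat HFD 3) to 8 (without fat ND 1). In these 2 fits 2.73% and 11.9% of all genes had the higher change in fat. For the tissue difference of GT against HFD they ran from 0 to 1. Top2a in fat GT against ND, −0.11, turned to 0.185 at equal totals, 0.071 under quantile scaling and 1.04 without the 3 libraries, and ran from −0.68 to 0.51 with a library left out. At equal totals Pcna in liver turned to −0.00403 in HFD against ND and 0.041 in GT against HFD. With a library left out, Mcm2 in liver GT against HFD ran from −0.40 to 0.053 and Mcm6 in liver GT against ND from −0.0543 to 0.28. The cause of these changes was not tested. Apart from fits with a library left out, values of single members kept direction and call in 424 cases, gained a call in 12, lost one in 21 and turned in 6. Depth is unknown, so the precision of low values cannot be given.

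With the replicate number as a block, fat HFD against ND had 6 members called higher (2.33% of all genes higher) and liver HFD against ND 2 (9.89%). The tissue difference of HFD against ND had 5 (3.9%). Called members were 0 in fat GT against HFD, where 0% of all genes were called. They were 0 also in fat GT against ND (0.0218% of all genes higher, 0% lower) and liver GT against ND (0.656% and 0.665%). Correlations of same-numbered libraries were 0.095 to 0.643 in fat HFD against ND, where 3 of 6 libraries correlated best with their own number. They were −0.069 to 0.174 in fat GT against HFD (2 of 6) and 0.096 to 0.418 in liver HFD against ND (5 of 6). In liver GT against HFD they were −0.279 to 0.198 (2 of 6) and in liver GT against ND −0.301 to −0.010 (0 of 6). Whether the numbers mark pairs is not settled by these values, and no main fit took them as pairs.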
